A study of Mus musculus with 8 samples.

Results

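Among the CD8 T cells that had entered beta cell grafts, the cells of 1 cluster carried the most granzyme B transcript. The cells, their clusters and their types were taken as the authors deposited them. Of 29 clusters, 4 held at least 50 cells annotated as CD8 T cells, and cluster 16 had the highest Gzmb level of these, 3570 CPM (the unique molecular identifiers, or UMIs, of a gene over all UMIs of the cells summed, on the usual CPM scale). It held 387 cells, all annotated as CD8 T cells, which made up 11.2% of the 3449 CD8 T cells and 1.72% of all 22441 cells. The other 3062 CD8 T cells lay in clusters 3 (1780 cells), 9 (986), 20 (252) and 26 (44, too few for the rule). Just outside the rule was cluster 20 with 2124 CPM of Gzmb, followed by clusters 9 (1613 CPM) and 3 (1242 CPM). Gzmb chose the cluster and all genes went into the clustering, so the members were selected on measured values and every level in the cluster beside the other CD8 T cells is given as a description without a test.

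The grafts were NIT-1 cells, a line that makes insulin and stems from an insulinoma of NOD origin, either unmodified (WT) or carrying a mutation of the renalase gene (Rnls mut). They grew under the skin of NOD.scid mice, hosts without T and B cells of their own that keep macrophages and NK cells, and all hosts received autoreactive splenocytes of diabetic NOD mice, so every T cell in a graft came from that transfer. Living CD45+ cells were sorted at day 10 or day 17 after the transfer, from 4 grafts per genotype and day. The 4 grafts of a genotype and day were marked with hashtags and pooled into 1 droplet library, so genotype, day and library cannot be told apart, and a graft in the text is a library and hashtag. A mouse carried a WT and a Rnls mut graft on opposite sides, but nothing in the labels ties a hashtag number to a mouse, so grafts were compared unpaired. How the mutant line was derived, and whether it is a single clone, is not given in the sources used here.

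Nearly all members came from day 10, 367 of 387 (94.8%), with 188 from WT and 179 from Rnls mut grafts. The day 10 grafts held 51, 44, 60 and 33 members in WT and 59, 25, 37 and 58 in Rnls mut, with 73222 to 218240 UMIs summed per graft. At day 17, 11 members came from WT and 9 from Rnls mut grafts, at most 6 per graft and none in WT graft 3. The median depth was 2911 UMIs per member, 2514.5 per other CD8 T cell and 3520 over all cells, with a median mitochondrial share of 1.07% in members. Of the cell barcodes, 42 occurred in more than 1 library, 3 of them on members. Without those cells the cluster's Gzmb level was 3588 CPM.

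CD8 T cells kill a target cell by releasing granules onto it. Perforin, made by Prf1, opens the target's membrane, and granzymes, proteases held in the granules, enter and set off cell death. Granzyme B cuts after aspartate and activates caspases, granzyme A is a tryptase that acts by another route, and serglycin (Srgn) binds both inside the granule. Resting and memory T cells make little of these proteins and rely on Tcf7 (TCF-1) and the interleukin 7 receptor (Il7r) to persist, while effector cells lose these and gain genes such as Klrg1 and Zeb2. In autoimmune diabetes, CD8 T cells that recognise beta cell peptides are among the cells that destroy the islets.

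Gzmb chose the cluster, and Gzma was the gene that set it apart furthest. Their start sites are shown because the genes lie apart in the genome and their levels were read together in all that follows. Gzma (ENSMUSG00000023132.8) spans positions 113093825 to 113100981 of chromosome 13 and Gzmb (ENSMUSG00000015437.5) positions 56258838 to 56262260 of chromosome 14 in GRCm38, both on the minus strand. The sequences are from RefSeq on GRCm38.p6, each 300 bases from 250 before to 50 after the annotated start, at chr13:113100932-113101231 and chr14:56262285-56262584 on the minus strand. RefSeq and GENCODE give Gzma the same start, while the RefSeq start of Gzmb lies 74 bases upstream of the GENCODE one, and distances below are from the RefSeq start. Capitals mark matches to TGTGGT (the core bound by Runx factors), TGANTCA (bound by AP-1) and TCACAC (part of the site of T-box factors), searched on both strands.
Gzma: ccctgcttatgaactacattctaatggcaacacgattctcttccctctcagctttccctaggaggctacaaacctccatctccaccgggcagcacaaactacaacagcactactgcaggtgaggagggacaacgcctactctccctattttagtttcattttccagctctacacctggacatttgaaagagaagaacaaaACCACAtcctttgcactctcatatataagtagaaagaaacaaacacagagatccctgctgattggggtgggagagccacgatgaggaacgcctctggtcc
Gzmb: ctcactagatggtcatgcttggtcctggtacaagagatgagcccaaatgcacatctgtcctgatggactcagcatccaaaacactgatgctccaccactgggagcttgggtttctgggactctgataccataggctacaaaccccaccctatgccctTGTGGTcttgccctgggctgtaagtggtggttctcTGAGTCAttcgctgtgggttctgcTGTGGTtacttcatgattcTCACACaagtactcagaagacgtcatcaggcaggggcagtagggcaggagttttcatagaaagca
The Gzma window held 1 match to TGTGGT on the reverse strand, read as ACCACA, 50 bases before the start. The Gzmb window held TGTGGT at 93 and 34 bases before the start, TGAGTCA at 58 bases before it and TCACAC at 15 bases before it, without overlaps. Of 32851 RefSeq promoters of the same length, 16.8% held TGTGGT, 7.81% TGANTCA and 14.5% TCACAC. A match is a run of letters and does not show that a factor bound there.

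The label CD8 T cell fitted the members' own transcripts. At day 10, 338 of 367 members had a UMI of Cd3e, which encodes a chain of the T cell receptor complex (92.1%), and 272 had a UMI of Cd8b1, a chain of the CD8 coreceptor (74.1%). At least 1 of Cd3e, Cd8b1, Cd8a and Trac was seen in 361 of 367 (98.4%). Defining markers of NK cells and CD4 T cells were rare, with Ncr1, an NK cell receptor, in 3 of 367 members and Cd4 at 2 UMIs over all members. Other transcripts of such lists were seen more often: over all 387 members, Lyz2 in 121 (129 CPM, beside 186 in the other CD8 T cells and 13839 in macrophages), the MHC class II gene H2-Aa in 68 and Eomes, a T-box factor of NK cells and CD8 T cells, in 48. No UMI of Foxp3, Csf1r, Adgre1, Ins1, Ins2 or Iapp was found in the day 10 members. The 14 genes of a list for CD8 T cell identity summed to 7991 CPM in the cluster and 8241 CPM in the other CD8 T cells at day 10, and of these only Cd28 lay to the same side in all 8 grafts, lower in the cluster. Transcripts typical of macrophages summed to 574 CPM in the cluster and 544 CPM in the other CD8 T cells, beside 44970 CPM in the annotated macrophages, with 2 of 20 listed genes (Csf1r and Adgre1) at 0 in the members. Mki67, a gene of dividing cells, was seen in 18 of the 367 members (4.90%).

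The gene that set the cluster apart furthest was Gzma rather than Gzmb. In the day 10 WT grafts, Gzma stood at 11165, 10899, 12767 and 11931 CPM in the cluster and at 2366, 1691, 1751 and 1677 CPM in the other CD8 T cells. In the Rnls mut grafts it stood at 10346, 10120, 11325 and 11618 CPM in the cluster and at 2146, 1950, 1994 and 2494 CPM outside. The ranges lay far apart, and over the 8 grafts pooled the cluster had 5.65 times the level of the other CD8 T cells. For Gzmb the cluster's grafts stood at 2613, 4234, 3705 and 2813 CPM in WT and 2538, 4070, 4279 and 5308 CPM in Rnls mut. The other CD8 T cells stood at 1541, 1570, 1553 and 1427 CPM in WT and 1608, 1642, 1858 and 1850 CPM in Rnls mut. Again all 8 grafts were higher in the cluster, by 2.24 times when pooled, but Gzmb varied more between grafts there (SD 975 CPM on a mean of 3695) than Gzma did (SD 856 CPM on a mean of 11271).

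**Figure D1:**
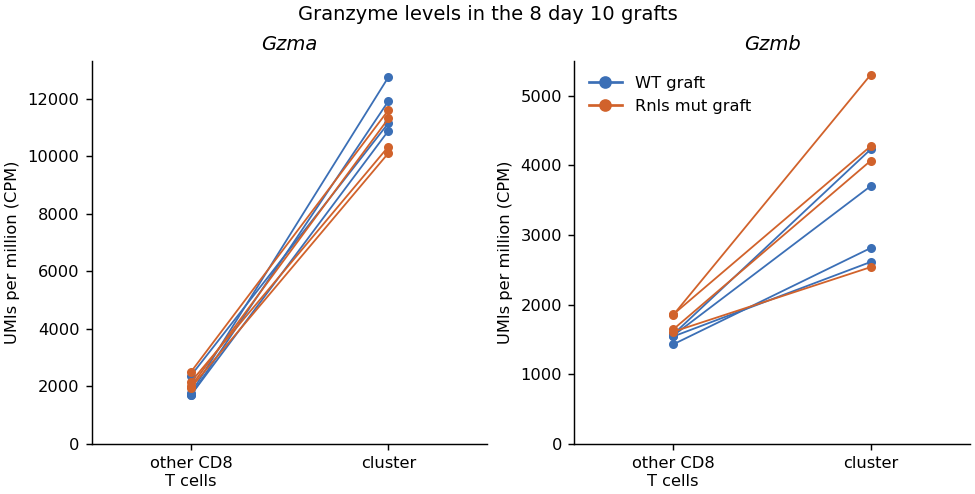
Levels of Gzma and Gzmb (CPM) in each of the 8 day 10 grafts, with the cluster beside the other CD8 T cells of the same graft and WT and Rnls mut grafts marked. For both genes the lowest graft of the cluster (10120 CPM for Gzma, 2538 CPM for Gzmb) lay above the highest value outside it (2494 and 1858 CPM).

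Cell by cell, every member had at least 13 UMIs of Gzma, with a median of 32, where the median of the other CD8 T cells was 2. Gzmb had no such floor. Its median was 8 UMIs in members and 2 outside, and the 10th percentile of the members was 1 UMI. A Gzmb UMI was seen in 95.6% of members and 83.3% of the CD8 T cells of cluster 20, or 85.0% and 64.3% after each cell was thinned to 1000 UMIs, beside 1.43% of macrophages (0.320% when thinned, at a median of 4719 UMIs per cell), which should not make it. Of the annotated NK cells, which also hold cytotoxic granules, 55.2% had a Gzmb UMI and 93.4% a Gzma UMI. Gzmk, the granzyme of less differentiated cells, was seen in 68.7% of members and 52.3% of the other CD8 T cells, and Prf1 in 49.1% and 36.0%. After thinning to 1000 UMIs these were 37.0% and 27.4% for Gzmk and 21.7% and 17.3% for Prf1. Thinned Prf1 was seen in 23.0% of cluster 20 and 27.3% of cluster 26, and in 15.2% of cluster 3 and 19.2% of cluster 9.

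**Figure D2:**
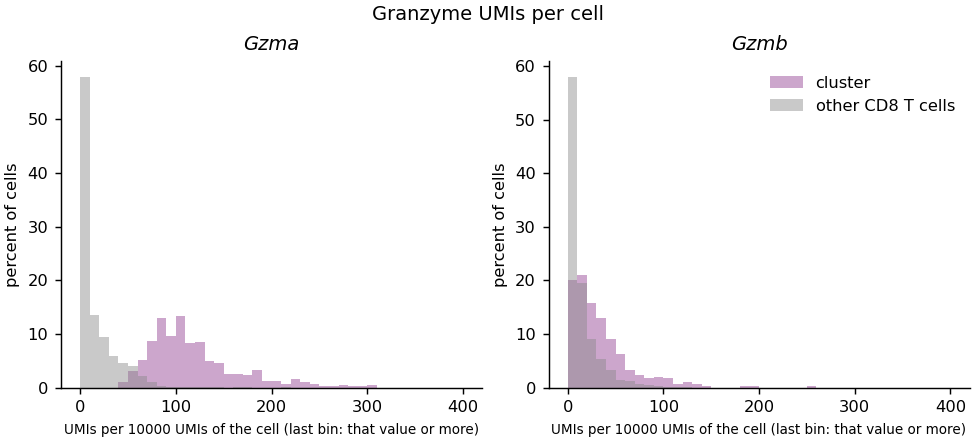
Distribution of Gzma and Gzmb UMIs per cell, each scaled to the same UMI total per cell as the axis gives, as a percentage of the 387 members and of the 3062 other CD8 T cells in bins 10 wide. On this scale the members begin in the Gzma bin at 40, while 58.0% of the other CD8 T cells lie in the lowest bin, which for Gzmb also holds 20.2% of the members.

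Some of the other CD8 T cells reached the lowest Gzma count of the members. At day 10, 274 of them (10.9%) had at least 13 Gzma UMIs, of which 114 lay in cluster 3, 101 in cluster 9, 57 in cluster 20 and 2 in cluster 26, with a median depth of 3312 UMIs per cell beside 2916 in members. This split, and the genes compared over it, were chosen after the values were seen. Gzmb was at 2316 CPM in these cells, between 3663 CPM in the cluster and 1514 CPM in the CD8 T cells with less Gzma. Tcf7 was at 11.5 CPM beside 5.06 in the cluster and 68.3 in the cells with less Gzma, and Il7r at 314 CPM beside 173 and 499. These cells thus stood nearer to the members in Tcf7. Prf1 was at 244 CPM in them and 257 CPM in the cluster, which was higher in 4 of 8 grafts. Gzmk was at 488 CPM beside 516 and Nkg7 at 1447 CPM beside 1563, the cluster being higher in 7 of 8 grafts for each. Klrg1 was at 133 CPM beside 159 (cluster higher in 6 of 8), while Lgals1 was at 3182 CPM beside 2764 (cluster lower in 6 of 8). Other genes set these cells apart. Cx3cr1, the receptor for fractalkine found on circulating effector cells, was at 13.5 CPM in them and 54.0 CPM in the cluster, which was higher in 8 of 8 grafts. Ifitm1, an interferon-induced membrane protein, was at 2295 CPM in them and at 249 CPM in the cluster. Over all grafts, however, Ifitm1 was at 6172 CPM in the CD8 T cells of cluster 20, beside 107 CPM in cluster 3 and 88.9 CPM in cluster 9. How far the 57 cells of cluster 20 made up this difference was not tested. The chemokine Ccl5 was at 11451 CPM in them and 18239 CPM in the cluster.

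At 10 CPM or more, 6987 genes could be compared between the cluster and the other CD8 T cells at day 10. Of these, 106 (1.52%) were higher in the cluster in all 8 grafts and 151 (2.16%) lower in all 8. Of the 17 genes of the granule list at that level, 7 were higher in all 8 grafts and 1 lower. Without Gzma and Gzmb, which mark the cluster, 5 of 15 were higher and 1 lower, with a median log2 ratio of 0.29 beside 0.0058 over all genes. The 5 included Nkg7, a granule membrane protein needed for killing (1563 CPM in the cluster, 1208 outside), and Prf1 (257 and 211 CPM). They also included Serpinb9 and Serpinb6b, inhibitors that guard a cell against its own granule proteases, at 872 and 539 CPM in the cluster and 730 and 396 CPM outside. Gzmk was higher too, at 516 CPM beside 364. The cells outside with at least 13 Gzma UMIs stood nearer to the cluster in Prf1 (244 CPM), Nkg7 (1447 CPM) and Gzmk (488 CPM). The lone granule gene that was lower in all grafts was Srgn, at 1739 CPM beside 2110.

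The genes with the largest ratios after the granzymes included several surface proteins of effector cells. Klre1, an NK cell receptor of the lectin family, was at 264 CPM in the cluster and 140 CPM outside. Klrg1, an inhibitory receptor of terminal effector cells, ranged from 123 to 184 CPM over the 8 grafts of the cluster and from 75.8 to 127 CPM outside. Entpd1, which encodes the ectonucleotidase CD39, ranged from 124 to 211 CPM and from 72.9 to 132 CPM. For both genes the lowest graft of the cluster lay within the range outside, although each graft's own pair pointed the same way. Tnfrsf9, the costimulatory receptor 4-1BB, was at 252 CPM beside 154. Zeb2, a transcription factor of terminal effector cells, was at 186 CPM beside 121, the galectin Lgals1 at 2764 CPM beside 1780, and the inflammasome adaptor Pycard at 329 CPM beside 212. Cyp51, an enzyme of sterol synthesis, was at 75.9 CPM beside 39.5. The remaining 10 of the 20 leading genes were Tmem163, Fgl2, Dap, Lamtor4, Acadl, Nelfb, Mrps15, Ctsa, Fbxo34 and Swi5, with pooled ratios from 1.48 to 1.85. Not all leading genes were particular to the cluster. In the day 10 cells outside with at least 13 Gzma UMIs, Klrg1 was at 133 CPM and Lgals1 at 3182 CPM. Over all grafts, Lgals1 was at 3175 CPM in cluster 20 beside 2774 CPM in cluster 16, and Fgl2 at 83.9 beside 82.7 CPM. Entpd1 was at 254 CPM in cluster 26 beside 173 CPM in cluster 16.

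Tcf7 and Il7r, genes of memory cells, were among the genes lower in the cluster, Tcf7 with the smallest ratio of all. Tcf7, the transcription factor of memory and progenitor T cells, had 6 UMIs over the 367 members, or 5.06 CPM beside 59.7 CPM outside. By graft it was at 0, 8.27, 0 and 0 CPM in WT and 13.7, 0, 0 and 10.4 CPM in Rnls mut, whereas the other CD8 T cells ranged from 33.6 to 83.6 CPM. In the cluster 5 of the 8 grafts held no Tcf7 UMI, and none overlapped with the cells outside. Il7r was at 158, 306, 155 and 229 CPM in WT and 137, 150, 145 and 157 CPM in Rnls mut, beside 294 to 575 CPM outside, so that WT graft 2 overlapped with the lowest values outside. Ifitm1 had a pooled ratio of 0.312, and its level outside came mostly from cluster 20, at 6172 CPM there over all grafts beside 107 CPM in cluster 3 and 88.9 CPM in cluster 9. Cd69, an early activation and residency marker, was at 85.2 CPM beside 150, and the chemokine receptor Cxcr3 at 50.6 CPM beside 84.7. Abcg1, Plaur, Ifitm3, Ahsa1, Fgf13, Sntb1 and Emb completed the 12 leading genes on that side.

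**Figure D3:**
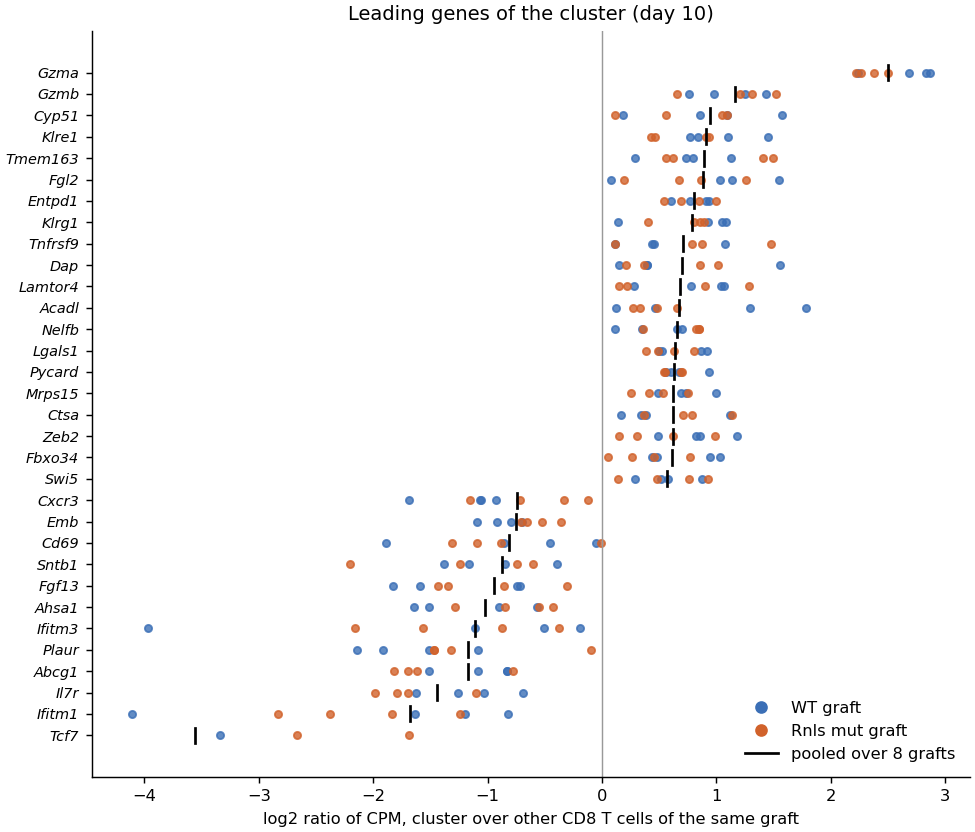
Level in the cluster over the level in the other CD8 T cells of the same graft (log2 scale) for the leading genes, 1 point per day 10 graft. Grafts without a Tcf7 UMI in the cluster are not drawn, and the pooled ratios run from 5.65 for Gzma to 0.085 for Tcf7.

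Read by role, only some lists divided in the same way, beside 1.52% of all genes at 10 CPM higher and 2.16% lower in all 8 grafts. Of 13 genes of memory and progenitor cells, 5 were lower in all 8 grafts and none higher (median log2 ratio -0.54): Tcf7, Il7r, Bach2 (163 and 245 CPM), Lef1 (91.1 and 141 CPM) and Slamf6 (61.6 and 89.3 CPM). Of 14 effector regulators, 3 were higher, Zeb2, Klrg1 and Runx3 (548 and 383 CPM), the last a factor that drives CD8 lineage and cytotoxic genes, while Stat4 was lower (826 and 1040 CPM). By pooled level 7 of the 14 were higher and 7 lower, with a median log2 ratio of 0.057 beside 0.0058 over all genes. The effector list as a whole thus lay to neither side. Of 10 NK cell receptors, 3 were higher, Klre1, Klrg1 and Klrd1 (470 and 362 CPM), and none lower. Of 11 genes of a list for inhibitory receptors and Tox, which also holds genes that rise on activation, 3 were higher and 1 lower (Nr4a3). The 3 higher were Entpd1, the costimulatory Tnfrsf9, and Havcr2 (651 and 507 CPM), which encodes the inhibitory receptor TIM-3. Lag3 was at 39.6 CPM beside 25.9, Pdcd1, which encodes PD-1, at 141 CPM beside 133, and Tox at 34.6 CPM beside 48.0, none to the same side in all grafts.

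Cytokine and homing genes showed a few such differences, where 1.52% of all genes at 10 CPM were higher and 2.16% lower in all 8 grafts. Among genes at 50 CPM or more, 93 of 2964 were higher and 107 of 2988 lower. A list with only 1 or 2 such genes is therefore a description and not read as a result. Ccl5, the main chemokine of these cells, was higher in all 8 grafts, at 18239 CPM beside 14406, whereas Ltb (426 and 621 CPM) and Xcl1 (13.5 and 25.8 CPM) were lower. Ifng was at 404 CPM beside 305, without the same side in every graft. Of 13 chemokine receptors and integrins, Ccr2 was higher (385 and 303 CPM) and Cxcr3 lower. Of 14 cytokine receptors, 3 were lower, Il7r, Il18r1 (548 and 819 CPM) and Ifngr1 (1227 and 1411 CPM). Of the 10 costimulatory receptors 1 was higher (Tnfrsf9) and 2 lower (Cd28 and Tnfrsf18), of 18 immediate early genes 2 were lower (Nr4a3 and Cd69), and of 6 residency genes 2 (Cd69 and Xcl1). In the lists for S phase (13 genes), G2 and M phase (6), glycolysis (17) and type I interferon response (18), no gene lay to the same side in all 8 grafts, and of 21 genes of the interferon gamma response and MHC class I, 3 were lower. The lists for macrophages, dendritic cells, granulocytes, CD4 T cells and gamma delta T cells also held none, while Igkc of the B cell list and Il7r of the NK and ILC list were lower.

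The variable genes of the T cell receptor were thinly covered by this 3' end library. At day 10, 123 of 367 members (33.5%) had a UMI of a Trbv gene, 160 UMIs in all. Trbv12-2 held 19.4% of these, Trbv29 18.8% and Trbv19 11.3%, beside 12.8% for Trbv12-2 and 13.7% for Trbv29 in the other CD8 T cells. Grafts differed in their first gene. Trbv29 led in graft 1 of both genotypes, with 7 of 21 UMIs in WT (33.3%) and 13 of 30 in Rnls mut (43.3%), and it also led in the other CD8 T cells of those grafts. Trav16n held 27.9% and Trav3-3 23.1% of the 104 Trav UMIs of the cluster, beside 20.1% and 13.5% outside. Several UMIs can come from the same cell and closely related V genes share sequence, so these shares are descriptions.

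How many of the CD8 T cells belonged to the cluster was compared between genotypes with the graft as the replicate. At day 10 the share was 13.3%, 9.93%, 15.4% and 9.57% in WT and 18.9%, 9.69%, 9.64% and 16.2% in Rnls mut grafts. The groups overlapped, with means of 12.04% ± 2.79 (SD, n = 4) and 13.6% ± 4.70 (SD, n = 4), 1.58 percentage points apart (two-sided exact permutation test, p = 0.571, adjusted p = 0.788 over 6 comparisons). At day 17 the shares were 7.41%, 4.44%, 0% and 13.04% in WT and 2.80%, 1.69%, 0.952% and 4.65% in Rnls mut. WT graft 3 had 0 of 18 CD8 T cells in the cluster, which allows a share of up to 16.7%, and WT graft 4 had 3 of 23, with an exact 95% Clopper-Pearson interval of 2.78% to 33.6%. WT averaged 6.22% ± 5.47 and Rnls mut 2.52% ± 1.61, which lay -3.70 percentage points apart (exact permutation p = 0.314). Over both days the difference was -1.06 percentage points (exact permutation p = 0.615).

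As a share of all CD45+ cells, the cluster made up 2.47% ± 0.592 in WT and 2.65% ± 0.857 in Rnls mut grafts at day 10, and 0.527% ± 0.369 and 0.192% ± 0.129 at day 17 (n = 4 each). The exact permutation p was 0.743 at day 10, 0.171 at day 17 and 0.788 over both, where the smallest p that 4 grafts against 4 allow is 0.0286. None of the 6 comparisons passed after adjustment (adjusted p = 0.788 each). The intervals cover counting error only. Without WT graft 3 at day 17, the difference among CD45+ cells was -0.510 percentage points with the smallest exact permutation p, 0.0286 for that design. No test of day was made on the shares, since Gzma, which marks the cluster, was itself lower at day 17 outside it. In the other CD8 T cells Gzma had a mean of 622 CPM per graft at day 17 beside 2009 CPM at day 10 (exact permutation of day within genotypes, p = 0.000408, the smallest that the 4900 assignments allow).

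**Figure D4:**
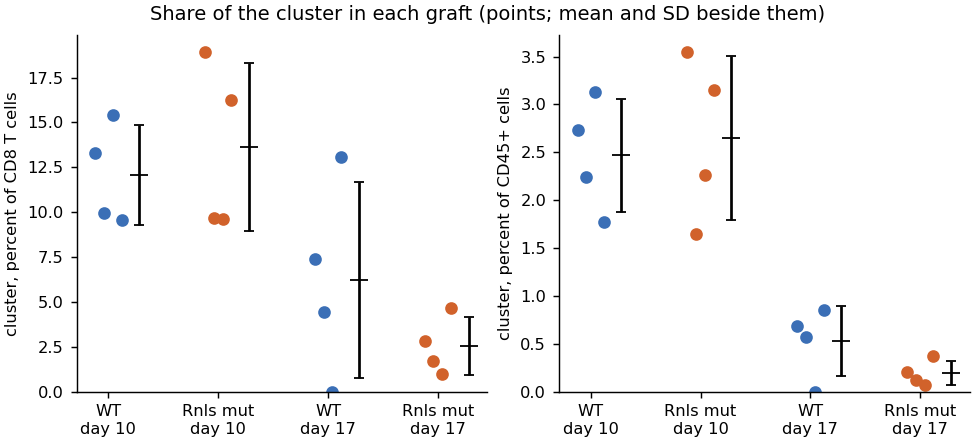
Share of the cluster among the CD8 T cells of each of the 16 grafts, in percent, by genotype and day, with the mean and SD of each group. WT and Rnls mut grafts overlapped on both days, and the day 17 values rest on 0 to 6 members per graft.

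Between genotypes, few genes differed within the cluster at day 10. Of 2441 genes tested with edgeR on UMIs summed per graft, 3 passed an adjusted p of 0.05 (0.123%), all higher in Rnls mut, and 178 had an unadjusted p under 0.05 (7.29%). Pmepa1, which encodes a membrane adaptor that restrains TGF-beta signaling, was at 42.6, 33.1, 22.9 and 28.6 CPM in WT and 206, 81.9, 72.4 and 130 CPM in Rnls mut. The grafts did not overlap, which held for 98 of the 2441 genes (4.01%), and the log2 fold change was 2.04 (SE 0.38, edgeR adjusted p = 0.0200). Pkm, the pyruvate kinase of glycolysis, was at 183, 157, 206 and 181 CPM in WT and 399, 369, 565 and 266 CPM in Rnls mut, again without overlap (log2 fold change 1.11, SE 0.22, edgeR adjusted p = 0.0200). Hspa1a, an inducible Hsp70 heat shock protein, was at 158, 124, 86.0 and 229 CPM in WT and 1352, 300, 710 and 125 CPM in Rnls mut. There graft 4 of Rnls mut fell among the WT grafts, and the log2 fold change was 2.17 (SE 0.43, edgeR adjusted p = 0.0200). All 3 calls were lost without WT graft 1, without WT graft 3 and without Rnls mut graft 1, that of Pkm also without WT graft 2 or Rnls mut graft 3, and under DESeq2 none passed (adjusted p = 0.783, 0.545 and 0.999 for Pmepa1, Pkm and Hspa1a).

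On the lower side no gene passed. The smallest p values there belonged to Cdk8, a kinase of the Mediator complex (log2 fold change -1.27, edgeR adjusted p = 0.0606), the ribosomal protein pseudogene Gm10076 (-0.67, adjusted p = 0.0616), whose reads may be shared with its parent gene, and the lysozyme gene Lyz2 (-1.34, adjusted p = 0.0681). In the other CD8 T cells of the same grafts, 41 of 6554 genes passed (0.626%). There Cdk8 (-0.91, edgeR adjusted p = 0.00108), Gm10076 (-0.76, adjusted p = 1.74e-05), Lyz2 (-1.13, adjusted p = 0.000127) and Pkm (0.70, adjusted p = 0.00569) changed in the same direction, while Pmepa1 (0.78, adjusted p = 0.535) and Hspa1a (0.98, adjusted p = 0.154) did not pass. The difference between the cluster and the other CD8 T cells in the genotype effect was 1.13 for Pmepa1 (SE 0.41, edgeR adjusted p = 0.998) and 0.90 for Hspa1a (SE 0.27, adjusted p = 0.548). Over 6293 genes no such difference passed in edgeR (0%), and 249 had an unadjusted p under 0.05. The smallest belonged to the chemokine Cxcl10 (2.14, adjusted p = 0.0867), then to Ccl4 (-1.56, adjusted p = 0.144) and Plxnc1 (1.37, adjusted p = 0.245).

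Lyz2 is a macrophage gene, and transcripts of other cells moved with genotype in the cluster. The 20 macrophage and monocyte genes summed to 652 to 944 CPM in the WT grafts and 282 to 437 CPM in the Rnls mut grafts of the cluster, led by Lyz2, Cd74, Ccl8 and Ctsb, with Csf1r and Adgre1 at 0. The 11 genes of dendritic cells and MHC class II summed to 323 to 620 CPM in WT and 234 to 246 CPM in Rnls mut, with Flt3, Xcr1, Clec9a and Cd209a at 0. The other CD8 T cells ranged from 338 to 743 CPM for the macrophage genes over all 8 grafts. The 4 macrophage genes tested had a median log2 fold change of -1.21, and none passed. With at least 1 cell per graft and both days in the fit, Lyz2 passed (edgeR adjusted p = 0.0466), as did Hspa1a, Pkm, Cdk8 (adjusted p = 0.0149) and Tpi1 (adjusted p = 0.0448), while Pmepa1 was removed by the filter on low counts. Their part in the other genotype differences was not tested.

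The glycolysis list pointed to one side. Of its 18 genes, 12 were tested, 1 passed (Pkm), and the fitted log2 fold change was above 0 for all 12, beside 1254 of all 2441 genes. The median was 0.57 (0.0069 over all genes). Triosephosphate isomerase Tpi1 stood at 73.1, 66.2, 11.5 and 38.1 CPM in WT and 105, 164, 232 and 83.5 CPM in Rnls mut (log2 fold change 1.55, edgeR adjusted p = 0.127). Lactate dehydrogenase Ldha stood at 426, 389, 459 and 381 CPM in WT and 532, 615, 681 and 548 CPM in Rnls mut (0.50, adjusted p = 0.284). Like Pkm, these grafts did not overlap, 3 of 12 genes beside 2.09% of all genes higher and 1.93% lower without overlap, but neither passed. Gapdh had a log2 fold change of 0.72 (edgeR adjusted p = 0.0635), phosphoglycerate kinase Pgk1 0.88 (adjusted p = 0.146) and aldolase Aldoa 0.71 (adjusted p = 0.260). In the other CD8 T cells 7 of the 17 tested passed, all higher in Rnls mut, with a median of 0.49, among them Gapdh (0.69, adjusted p = 0.00108), Pgk1 (0.90, adjusted p = 0.00584), Aldoa (0.87, adjusted p = 0.00632) and Tpi1 (1.23, adjusted p = 0.0114).

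**Figure D5:**
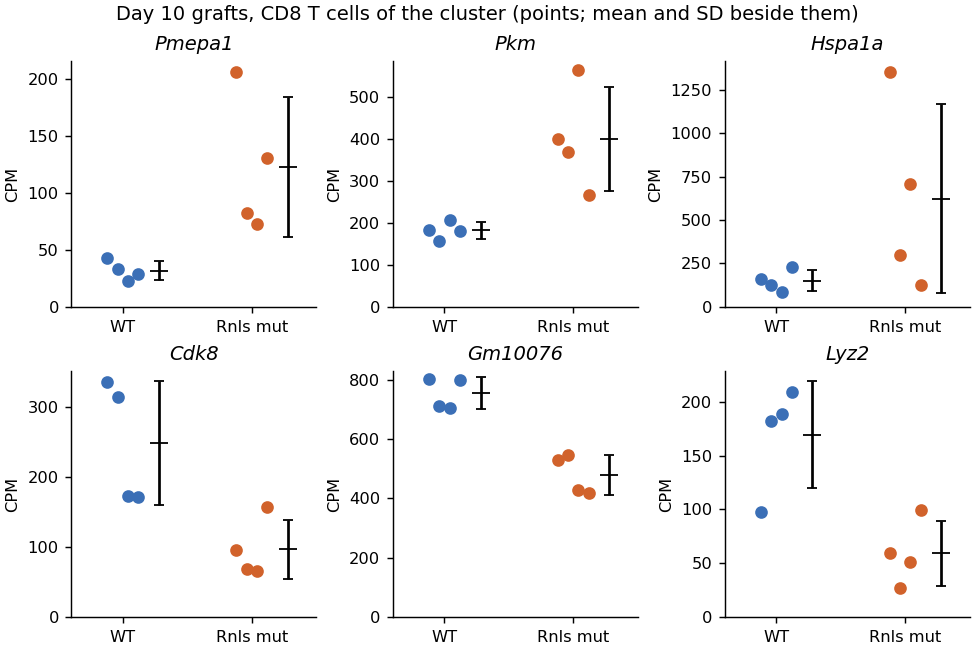
Levels (CPM) in the cluster in each day 10 graft of WT and Rnls mut for the 3 genes of smallest p on either side, higher (top row) or lower (bottom row) in Rnls mut, with the mean and SD of 4 grafts. Pmepa1 and Pkm separate the genotypes (at most 42.6 and 206 CPM in WT, at least 72.4 and 266 CPM in Rnls mut), while in Hspa1a Rnls mut graft 4 (125 CPM) lies among the WT grafts.

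The cytotoxic genes did not pass between genotypes. Gzmb had means of 3341 CPM ± 761 in WT and 4049 CPM ± 1143 in Rnls mut (SD, n = 4 each; log2 fold change 0.28, edgeR adjusted p = 0.767; exact permutation p = 0.371). Gzma, of which every member had at least 13 UMIs, had means of 11690 CPM ± 841 and 10852 CPM ± 731 and was not tested. Of 14 granule genes tested none passed, and their median log2 fold change was 0.00014. No gene passed in the lists for inhibitory receptors (7 tested, median 0.21), memory genes (9 tested, -0.027), effector regulators (9 tested, -0.039), NK cell receptors (6 tested, -0.049), cytokines (5 tested, 0.017), cytokine receptors (12 tested, 0.053) or immediate early genes (10 tested, 0.25).

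The 20 members left at day 17 were too few for the minimum of 10 cells per graft, so day was compared only in the fit that keeps every graft with a member, 8 grafts at day 10 and 7 at day 17. These 20 cells held 60446 UMIs in all and 3766 to 19039 per graft. All 20 had a UMI of Cd3e, Cd8b1, Cd8a or Trac, and none of Ncr1. The scaling decided the balance of this comparison. With TMM factors 295 of 2168 genes passed (13.6%), 19 higher and 276 lower at day 17, and the median of all genes was -0.38 on the log2 scale. With library size alone, chosen after this was seen, 83 passed (3.83%), 39 higher and 44 lower, and the median was 0.11. The genes below passed with both, 63 of 2168 (2.91%), 19 of them higher (0.876%) and 44 lower (2.03%). Their log2 fold changes are those by library size. Some of the 19 passed the filter on low counts only through their day 17 grafts, as said below for those named.

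Among the 10 genes with the smallest p that were lower at day 17 were 5 heat shock genes, a group seen after the fit and not tested as one: Hsp90aa1 (-3.09, from 2035 to 248 CPM pooled), Hsp90ab1 (-1.55), Dnaja1 (-1.40), Hspa8 (-1.12) and Hspd1 (-3.53), each with an edgeR adjusted p of at most 5.20e-05. Hsp90aa1 was at 1328 to 3001 CPM in the day 10 grafts and 0 to 554 CPM at day 17, without overlap. The other CD8 T cells fell as well in each of these, by 2.84 on the log2 scale for Hsp90aa1. Havcr2 fell from 772 UMIs (651 CPM) to 4 UMIs (66.2 CPM), seen in 2 of 7 day 17 grafts (edgeR adjusted p = 1.82e-06). The WT grafts of day 17 held none, so no fitted fold is given. It fell from 507 to 144 CPM in the other CD8 T cells. Gzmb stood at 1313, 282 and 4657 CPM in the WT grafts 1, 2 and 4 at day 17 and at 1857, 716, 1075 and 1859 CPM in Rnls mut. WT graft 4 lay above most day 10 grafts, and the others below all of them. Since Gzmb chose the cluster and nearly all its cells were from day 10, its levels by day are given without a test. Gzma was at 11318 CPM at day 10 and 12176 CPM at day 17, given as a description since every member had at least 13 Gzma UMIs.

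Other genes that fell were Ctla2a, a cathepsin inhibitor (-2.44, from 1825 to 480 CPM), Ly6a, the interferon-induced surface protein Sca-1 (-1.47, from 1790 to 645 CPM), the ribosomal protein gene Rpl24 (-0.87) and the transcription cofactor Sub1 (-1.10). Of the list genes, the T cell receptor genes Cd3d (-1.06) and Trbc2 (-0.97), aldolase Aldoa (-1.75) and the interferon-induced Gbp2 (-4.58, 1 UMI at day 17) fell.

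Higher at day 17 was Il12rb2, the signaling chain of the interleukin 12 receptor. It stood at 257 to 506 CPM in the day 10 grafts, at 1996, 1130 and 2329 CPM in WT and at 884, 895, 1505 and 797 CPM in Rnls mut at day 17. The days did not overlap (log2 fold change 1.76, SE 0.25, edgeR adjusted p = 6.38e-07), while in the other CD8 T cells the log2 fold change was 0.11 (adjusted p = 0.609). Klf2, a factor that keeps T cells in circulation, rose from 173 to 893 CPM (2.17, edgeR adjusted p = 6.77e-05), but ranged from 0 to 2390 CPM over the day 17 grafts. Lmna, a nuclear lamin, rose from 183 to 612 CPM (1.74, edgeR adjusted p = 0.00481), and Dennd4a and Nabp1 rose too. Lef1, Lin54, Tnrc18, Slc9a9, Wfdc17 and Apoe passed the filter on low counts only through their day 17 grafts. They were thus selected by the day in which they were high, so their rise is a description and not read as a test. Lef1 went from 91.1 to 463 CPM. Lin54 had 14 UMIs and Tnrc18 10 UMIs in the members at day 17. Wfdc17 (3.60), Apoe (4.10) and Lyz2 (1.94), transcripts of macrophages, also rose, by 2.89, 4.22 and 1.70 in the other CD8 T cells, and their part in the other day differences was not tested. A further 7 of the 19 genes fell outside the rule for named genes.

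Of these 12 named genes, Il12rb2 and Lin54 passed by TMM in every fit with a graft left out. Lin54 entered only through day 17, so its calls are not read as support. The other 10 lost the call in at least 1 fit, always when a day 17 graft was left out. Wfdc17 and Tnrc18 were tested in only 8 of the 15 fits, since the filter on low counts removed them in the rest. Whether their calls would hold there is not known. Without WT graft 1 these were Tnrc18, Dennd4a, Nabp1 (0.32, from 1.07 by TMM), Lef1 (0.86, from 1.56) and Slc9a9 (-2.57, from 1.54). Without WT graft 4 they were Apoe, Dennd4a (0.42, from 0.78), Lmna (0.43, from 1.24) and Lyz2. Without Rnls mut graft 1 they were Wfdc17 (1.75, from 3.12), Lmna (0.48), Nabp1, Slc9a9 and Lyz2, and without Rnls mut graft 4 Klf2 (0.89, from 1.66). Without Rnls mut graft 2 the calls on Lef1, Slc9a9 and Lyz2 were lost, and without Rnls mut graft 3 those on Lef1, Nabp1 and Slc9a9.

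Several genes of effector and exhausted cells were not among those called by both scalings or were too low to test for day within the cluster, and their pooled levels are given. Klrg1 was at 159 CPM at day 10 and 364 CPM at day 17 (22 UMIs), Zeb2 at 186 and 397 CPM, and Cx3cr1 at 54.0 and 215 CPM (13 UMIs). In the other CD8 T cells these stood at 92.3 and 69.5 CPM, 121 and 113 CPM, and 20.3 and 33.5 CPM. Tox had 0 UMIs in the 20 members, which allows up to 49.6 CPM, where the other CD8 T cells stood at 260 CPM at day 17 and 48.0 CPM at day 10. Ctla4 had 3 UMIs (49.6 CPM) beside 406 CPM outside at day 17. For both the change with day differed from that in the other CD8 T cells by both scalings (edgeR adjusted p = 0.0434 for Tox and 0.00604 for Ctla4 by library size). Lag3 had 0 UMIs and Pdcd1 4.

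Whether the change with day differed between the cluster and the other CD8 T cells was tested within grafts over 5257 genes. With library size 14 passed (0.266%), 11 of them also with TMM in the same direction, and with TMM alone 624 did, with a median of -0.96. For Il12rb2 it was 1.40 by library size (adjusted p = 7.49e-05) and 0.60 by TMM (adjusted p = 0.0907). Gzma was counted among the 11. Every member had at least 13 Gzma UMIs, while Gzma in the other CD8 T cells went from 2004 to 545 CPM pooled. This difference is therefore not read as a change within the cluster.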

How the data were processed

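CD45+ cells of 16 NIT-1 grafts were measured by 3' end droplet sequencing. The authors deposited raw UMI counts of 32285 genes in 22441 cells, without normalization, and a table with each cell's library, hashtag, cluster and type. The submitters' processing notes name Cell Ranger and mm10. Hashtag assignment, cell filters and the treatment of doublets are not given in the sources used here. No doublet caller was run, and the 5% of cells with the most UMIs per library, left out as an alternative, held no member. The library totals ran from 1742746 to 9729233 UMIs per graft.

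UMIs were summed per graft over the members and over the other CD8 T cells, for grafts with at least 10 members, and the sums went into the quasi-likelihood test of edgeR 4.0.16 (glmQLFTest after TMM scaling and its filterByExpr filter, Benjamini-Hochberg adjustment) under R 4.3.3. This left the 8 grafts of day 10, so the planned contrasts at day 17, over both days and between days could not be fitted that way. Day was read from a fit with at least 1 cell per graft, by TMM and by library size alone. Shares and single levels were compared with two-sided exact permutation tests over grafts (Python 3.11.15 with NumPy 2.4.6, SciPy 1.17.1, pandas 2.3.3). The planned test of day on the shares was not made. p-values measure the spread between grafts. Whether these came from separate mice within a group is not stated in the labels. The paper describes the replicates of its NK cell and ILC1 panels from this experiment as paired and biological. Intervals are exact 95% Clopper-Pearson, and a count of 0 was given the limit of 3 counts.

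The genes named were Gzmb, list members past an adjusted p of 0.05, and the 4 highest or consistent members per list as examples. For each contrast they were up to 10 genes per direction past that threshold, or the 3 with the smallest p where fewer than 3 passed. Leading genes were up to 20 higher and 12 lower in all 8 grafts at 50 CPM or more, by pooled ratio. List members to the same side in all grafts, Cx3cr1, Lag3 and the genes of the cells rich in Gzma were named after their values were seen. The members and lists were chosen with earlier results of these data known. Alternatives were DESeq2 1.42.0, no filter on low counts, a block for the hashtag number, 1 or 20 cells as the minimum and each graft left out. Counts were also simulated from these grafts, with the same dispersion for every gene. There 141 of 184 genes with a log2 change of 1.0 were recovered (76.6% of them, 2402 genes tested), with 6 false calls. With a change of 1.5, 175 of 177 were recovered (98.9%, 2387 tested), with 8 false calls. Recovery of genes that vary more between grafts was not measured. Gene positions are from GENCODE on GRCm38 and promoter sequences from RefSeq on GRCm38.p6, which held 18 of the 20 leading genes that were higher and 9 of the 12 that were lower.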

Additional observations from a re-analysis of the deposited data

Results flagged for a closer look

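Among the leading genes, single day 10 grafts stood far from the other 3 of their genotype in 6 of 84 groups looked at (7.14%), where chance gives about 1 in 20. In Rnls mut graft 3, Fgl2 was at 167 CPM beside 47.0 to 64.1 in the others and Ctsa at 145 CPM beside 88.7 to 96.2. In WT graft 3, Swi5 was at 172 CPM beside 116 to 124. In WT graft 2, Tcf7 was at 8.27 CPM where the other 3 WT grafts were at 0, and Ifitm3 at 8.27 CPM beside 57.2 to 67.0, each a level of 1 UMI. In WT graft 1, Sntb1 was at 183 CPM beside 109 to 116.

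The change from day 10 to day 17 differed between the cluster and the other CD8 T cells in 10 genes besides Gzma, by both scalings (edgeR, library size values given). The 7 day 17 grafts held 20 members in all, and no explanation was tested. The difference in log2 fold change was 1.87 for Lmna, 2.38 for Parp8, -2.34 for Ifi27l2a, -1.58 for Ctla2a, -2.98 for Ctla4, -1.03 for Ly6a, -0.95 for AW112010, -0.59 for Rpl39 and -0.56 for Rps15a. Ctla4 had 3 UMIs and Ifi27l2a 9 UMIs in the members at day 17. For Tox the fitted difference was -8.72, which rests on 0 UMIs in those members and is no bound.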

How the results depend on the processing

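In the genotype comparison at day 10, 3 genes passed, and 0 did with DESeq2 (131 at an unadjusted p under 0.05), 20 without the filter on low counts, 5 with at least 1 cell per graft, 26 with the hashtag number as replicate block, and 0 to 17 with a graft left out (0 without WT 1, WT 3 or Rnls mut 1, 5 without WT 4, 17 without Rnls mut 4). The numbers were not shown to pair the grafts: same-numbered grafts correlated from -0.056 to 0.144 in their deviations from the group means, and from -0.0042 to 0.406 in the other CD8 T cells. Grafts 1 and 2 correlated best with their own number, but WT graft 3 with Rnls mut graft 4 (0.198 in the other CD8 T cells) and WT graft 4 with Rnls mut graft 3 (0.231), a hint from the data and not the design, so the block may mispair grafts and its count was not read as an effect. Without cells whose barcode is in another library, an alternative added after seeing the data, 3 passed. A minimum of 20 cells and day 10 fitted alone hold the same grafts and gave the same values. The fold changes ranged from 1.63 to 2.23 for Pmepa1, 0.88 to 1.28 for Pkm and 1.37 to 2.56 for Hspa1a with a graft left out. For the difference in genotype effect between the cluster and the other CD8 T cells, 0 genes passed, 3 without the filter and 0 to 3 with a graft left out. For day, 295 passed by TMM, 83 by library size, 109 to 440 by TMM and 42 to 90 by library size with a graft left out, the lowest without WT graft 1 of day 17 (55 without Rnls mut graft 1 of day 17). Slc9a9 ranged from -2.57 (without WT graft 1 of day 17) to 1.89 by TMM. The Gzmb genotype fold change ranged from 0.11 to 0.46.

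Genotype differences in the share among CD8 T cells, in percentage points, ranged from -0.184 to 2.91 at day 10, -5.77 to -1.43 at day 17 and -2.10 to 0.0765 over both days with a graft left out, reversing without Rnls mut graft 1 of day 10 (-0.184) and without WT graft 4 of day 17 (0.0765). Among CD45+ cells they ranged from -0.110 to 0.522 at day 10, -0.510 to -0.227 at day 17 and -0.222 to 0.0936 over both days, reversing without WT graft 4 (-0.0455) or Rnls mut graft 1 (-0.110) of day 10, and over both days without WT graft 3 (0.0370) or Rnls mut graft 2 (0.0936) of day 10. Exchange within hashtag numbers (replicate block) changed no call on a share. With 20 members at day 17, a Gzmb or share difference there rests on at most 6 cells per graft.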
